A study of Mus musculus with 8 samples.

Results

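The genes described here encode precursor proteins of the cornified envelope and the enzymes that join and process them: Lor (loricrin), Ivl (involucrin), Flg (filaggrin), Flg2 (filaggrin-2), Tgm1 and Tgm3 (transglutaminases), Casp14 (caspase-14), Asprv1 (skin aspartic protease), Evpl (envoplakin) and Ppl (periplakin). Members were the probe sets whose array annotation names exactly 1 of these 10 symbols. That gave 14 probe sets for 9 genes, out of 45037 probe sets in all (34945 with a single gene symbol), and no probe set in this annotation carried Flg2 as its single symbol. The data come from belly skin of mice aged 8 months, with total RNA hybridised to mouse expression arrays. Transgenic mice carried a hurpin transgene and numbered 4, of which 7 and 84 were female and 11 and 17 male. Wildtype mice numbered 3, of which 26 and 28 were male and 29 female. Hurpin (gene SERPINB13) belongs to the serpins and is known for blocking cathepsin L, a cysteine protease. Wildtype 29 was measured on 2 arrays, so there were 8 arrays for 7 animals. The promoter that drives the transgene, the number of founder lines and the strain are not given in the sources used here.

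The cornified envelope is a sheet of cross-linked protein that replaces the plasma membrane of keratinocytes as they become the dead outer cells of skin. Envoplakin and periplakin form a scaffold under the membrane, to which involucrin is joined, and loricrin is later added in bulk as the main reinforcing protein. Transglutaminase 1, held at the membrane, and transglutaminase 3, a soluble enzyme activated by proteolysis, form the bonds between glutamine and lysine side chains. Filaggrin packs keratin filaments and is then cut into free amino acids, a process in which Asprv1 and caspase-14 take part in mouse skin. Cathepsin L, the protease that hurpin inhibits, is one of the proteases known to process transglutaminase 3, and cathepsin D is known to process transglutaminase 1.

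Upstream sequences are shown to let the precursor genes, which lie together on mouse chromosome 3, be set beside the transglutaminase genes, which do not. RefSeq windows on GRCm38.p6 were present for 8 of the 10 genes (9 windows, because Tgm1 has a pair of starts). Each line gives the 250 bases before the start, 5′ to 3′ on the strand of the gene, and capitals mark matches to the TATA box (TATAAA) and to a loose AP-1 pattern (TGANTCA, where N is any base), both searched on both strands.
Lor (chr3:92083143-92083392, minus strand): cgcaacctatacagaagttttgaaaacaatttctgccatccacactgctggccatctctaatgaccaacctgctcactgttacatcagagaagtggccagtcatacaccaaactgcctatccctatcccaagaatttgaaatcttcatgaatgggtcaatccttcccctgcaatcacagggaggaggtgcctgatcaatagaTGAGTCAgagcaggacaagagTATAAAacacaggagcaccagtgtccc
Ivl (chr3:92573736-92573985, minus strand): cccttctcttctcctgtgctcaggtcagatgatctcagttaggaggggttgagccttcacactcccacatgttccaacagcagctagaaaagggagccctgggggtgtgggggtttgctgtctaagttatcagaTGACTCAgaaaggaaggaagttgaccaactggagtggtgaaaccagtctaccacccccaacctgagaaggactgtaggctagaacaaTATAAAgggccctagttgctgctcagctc
Flg (chr3:93273296-93273545, plus strand): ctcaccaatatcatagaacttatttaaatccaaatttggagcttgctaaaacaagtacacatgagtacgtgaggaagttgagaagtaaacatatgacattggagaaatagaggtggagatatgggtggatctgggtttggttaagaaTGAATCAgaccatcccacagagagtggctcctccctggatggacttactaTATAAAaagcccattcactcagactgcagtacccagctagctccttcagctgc
Flg2 (chr3:93197023-93197272, plus strand): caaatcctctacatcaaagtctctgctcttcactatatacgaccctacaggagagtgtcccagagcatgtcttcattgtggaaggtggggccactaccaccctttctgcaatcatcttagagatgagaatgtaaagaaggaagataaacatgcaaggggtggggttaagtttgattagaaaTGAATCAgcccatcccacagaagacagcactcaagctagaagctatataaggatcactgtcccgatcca
Tgm1 (chr14:55713493-55713742, minus strand): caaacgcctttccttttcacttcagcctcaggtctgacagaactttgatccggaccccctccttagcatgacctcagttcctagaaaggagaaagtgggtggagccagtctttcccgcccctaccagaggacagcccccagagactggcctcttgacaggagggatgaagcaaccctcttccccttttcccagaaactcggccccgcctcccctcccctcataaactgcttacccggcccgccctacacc
Tgm3 (chr2:130012090-130012339, plus strand): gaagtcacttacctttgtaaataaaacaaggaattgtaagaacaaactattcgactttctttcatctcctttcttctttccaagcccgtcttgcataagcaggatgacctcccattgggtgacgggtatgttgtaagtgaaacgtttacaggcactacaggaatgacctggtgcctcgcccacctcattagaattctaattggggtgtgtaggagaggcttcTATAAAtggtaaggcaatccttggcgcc
The AP-1 letters occurred in 4 of the 9 windows, those of Lor, Ivl, Flg and Flg2, and in 6.73% of the 32544 windows of all genes in the table. The free middle base was G in Lor and C in Ivl, but A in Flg and Flg2. TATAAA occurred in 4 windows, those of Lor, Ivl, Flg and Tgm3, and in 12.3% of all windows. The AP-1 match began 48 bases before the start in Lor, 116 in Ivl, 103 in Flg and 69 in Flg2. The TATAAA match began 27, 29 and 28 bases before the start in Lor, Ivl and Tgm3, and 53 bases before it in Flg. A C/EBP pattern (TTNNGNAA, in 36.8% of all windows) occurred in 4 windows, those of Lor, Flg, Flg2 and Tgm3, and a Grainyhead pattern (AACCGGTT, in 0.117%) in 0. The matches are letters only, and binding was not measured.

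Animals differed in a control signal ratio that went with the groups and in hair follicle transcripts that crossed them, and these values are given beside the results. Signal of the control Gapdh at its 3′ end over that at its 5′ end, a measure of how far labelled targets reached along transcripts, was 13.8, 1.45, 4.68 and 17.2 in transgenic 7, 11, 17 and 84, against 0.927 to 1.41 on the 4 wildtype arrays. As log2 ratios this was 2.67 ± 1.64 in transgenic and 0.15 ± 0.08 in wildtype animals (SD, n = 4 and 3, exact permutation p = 0.0571, 2-sided, which is the minimum for groups of this size). Every transgenic Gapdh ratio lay above every wildtype one. Differences adjusted for the Gapdh ratio, given below, therefore cannot tell it apart from the group. The same ratio of the control Actb was 4.33, 2.40, 3.33 and 5.87 in transgenic 7, 11, 17 and 84. It was 2.21 to 2.64 on the wildtype arrays, so transgenic 11 lay within the wildtype range. No adjustment for the Actb ratio was made. The mean log2 level of 7 hair shaft keratins was 13.83, 12.79, 9.89 and 13.75 in transgenic 7, 11, 17 and 84, against 6.89, 14.19 and 14.27 in wildtype 26, 28 and 29. Wildtype 26 and transgenic 17 therefore stood apart in hair follicle transcripts. All 5 basal, 5 suprabasal and 9 granular keratinocyte markers, some of them genes described here, passed the filter on low values. That filter kept 27022 of 45037 probe sets, and all 5 skeletal muscle and 5 mast cell markers passed it too. Passing it is therefore no test of the label of skin. Xist was between 12.84 and 13.16 in the 3 labelled females and between 6.81 and 7.10 in the 4 labelled males. In whole skin, fewer cells of a type and less RNA per cell cannot be told apart.

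None of the 14 probe sets passed the comparison of transgenic with wildtype skin, which asked whether the transgene of a cathepsin L inhibitor goes with a different output of these genes. Values are log2 of signal intensity plus 21.8, and differences are transgenic minus wildtype on that scale. All 14 passed the filter on low values, and limma called 0 of them at an adjusted p under 0.05 (adjusted p from 0.315 to 0.871). Of all 27022 probe sets tested 0.0148% were called, 0.0074% higher and 0.0074% lower. Before adjustment limma gave p under 0.05 for 5 of the 14, or 35.7%, all lower in transgenic skin, where 7.93% of all probe sets tested were lower at that level. These 5 were Tgm1, Asprv1, Ppl and 1 probe set each of Ivl and Tgm3. In a fit of the most abundant probe set of each gene, 3 of 9 members (Tgm1, Asprv1 and Ppl) were under 0.05 before adjustment. In the main fit 4.6% of 13559 genes, each by its most abundant probe set, were lower at that level. The members were chosen with earlier results of these data known, so these shares are no test of them as a set. Higher at that level were 0 members, against 3.77% of all tested. The median difference was -0.39 over the member probe sets and 0.00 over all probe sets tested, with 9 members below 0 and 5 above. Asprv1 and Ppl were the 2 probe sets in which all 4 transgenic animals lay below all 3 wildtype animals, a pattern shown by 6.71% of all probe sets tested. The count of 5 was 8 without wildtype 26, 4 without transgenic 17, 2 without wildtype 29, 5 without transgenic 7 and 84 together, and 2 after adjustment for the log2 Gapdh ratio. After that adjustment the lowest adjusted p of the members in limma was 0.999989. Shares of all probe sets at the unadjusted level are not given for these alternatives, so the counts cannot be set against them.

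**Figure D1:**
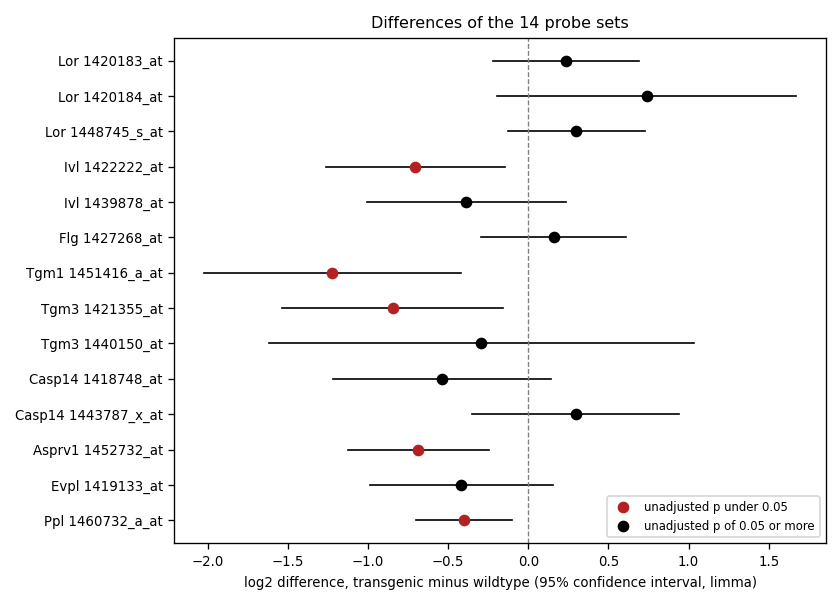
Differences between transgenic and wildtype belly skin for the 14 probe sets, as log2 transgenic minus wildtype with 95% confidence intervals from limma (4 against 3 animals). Red points have an unadjusted p under 0.05; these 5 all lie below 0, while the 3 Lor probe sets, Flg and 1 of the 2 Casp14 probe sets lie above it.

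Loricrin lay higher on average in transgenic skin in each of its 3 probe sets, within the spread of the animals. The probe set 1448745_s_at, the most abundant, had signal intensities of 24923, 22481, 28643 and 23710 in transgenic 7, 11, 17 and 84, against 27763 and 18361 in wildtype 26 and 28 and 17672 and 14663 on the arrays of wildtype 29. Wildtype 26 stood among the transgenic animals, and wildtype 28 and 29 stood below all of them. The log2 means were 14.60 ± 0.15 in transgenic and 14.30 ± 0.41 in wildtype animals (SD, n = 4 and 3), a difference of 0.30 (95% confidence interval -0.13 to 0.73, limma adjusted p = 0.552). The second probe set, 1420183_at, ordered the 7 animals in the same way, from transgenic 17 and wildtype 26 at the top to wildtype 28 and 29 at the bottom, with a difference of 0.24 (-0.22 to 0.69, adjusted p = 0.668) that was 0.071 without wildtype 29 and 0.48 without wildtype 26. The third, 1420184_at, had far lower intensities, between 75.5 and 353, and another order of animals. It measured 7.86 ± 0.73 in transgenic and 7.12 ± 0.48 in wildtype skin, a difference of 0.74 (-0.19 to 1.67) that turned to -0.29 after adjustment for the Gapdh ratio and was 0.28 without transgenic 7 and 84. Without wildtype 26 the most abundant Lor probe set gave 0.53, and without wildtype 29 it gave 0.14.

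Involucrin, the early scaffold precursor, ran the other way. Its more abundant probe set, 1439878_at, had intensities of 6892, 3213, 5980 and 6832 in transgenic 7, 11, 17 and 84, against 5897 and 7324 in wildtype 26 and 28 and 9088 and 8099 on the arrays of wildtype 29. Transgenic 11 was the lowest animal and wildtype 29 the highest, while the other 3 transgenic animals overlapped with wildtype. The difference was -0.39 (95% confidence interval -1.01 to 0.23, limma adjusted p = 0.599), -0.13 without transgenic 11 and -0.26 without wildtype 29, and -0.71 without transgenic 7 and 84. In 1422222_at the intensities were 772, 392, 500 and 462 in the transgenic animals 7, 11, 17 and 84, against 707, 832, 928 and 1192 on the wildtype arrays (26, 28 and 29 on 2 arrays). Here 3 of the 4 transgenic animals lay below all wildtype animals, and transgenic 7 lay between wildtype 26 and 28. The log2 means of 9.07 ± 0.40 in transgenic and 9.77 ± 0.28 in wildtype animals gave a difference of -0.70 (-1.26 to -0.15, unadjusted p = 0.0192, adjusted p = 0.356). Both Ivl probe sets moved further from 0 after adjustment for the Gapdh ratio, to -1.14 for 1439878_at and -1.09 for 1422222_at.

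Filaggrin did not separate the groups. Its probe set 1427268_at had intensities of 3310, 4231, 5284 and 5397 in transgenic 7, 11, 17 and 84, against 3706 and 4800 in wildtype 26 and 28 and 3090 and 4226 on the arrays of wildtype 29. Each group spanned much of the range of the other, and the arrays of wildtype 29 alone differed by 0.45 on the log2 scale, the widest gap of that pair among the 14 probe sets. The difference between groups was 0.16 (95% confidence interval -0.30 to 0.61, limma adjusted p = 0.782), with a range from 0.067 without transgenic 84 to 0.30 without transgenic 7.

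**Figure D2:**
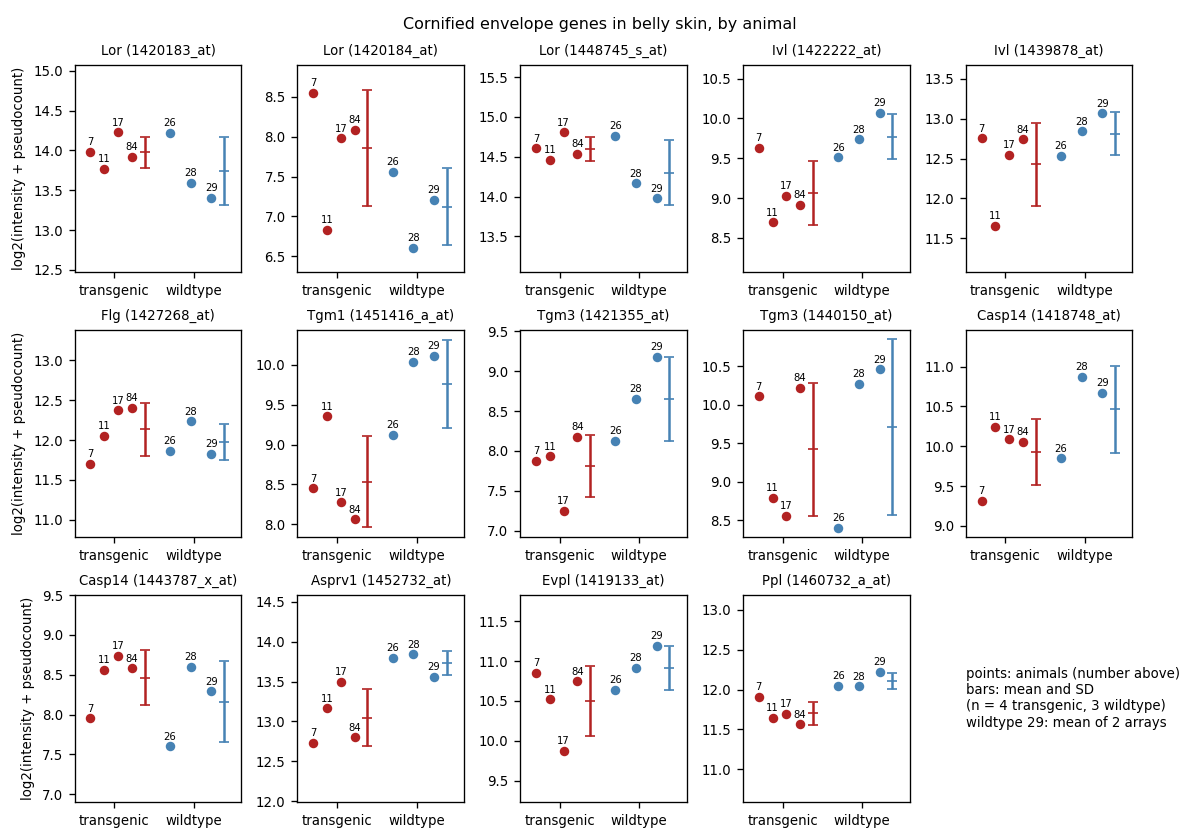
Log2 of signal intensity plus the pseudocount of 21.8 for each of the 14 probe sets, by animal (numbers above the points), with mean and SD for 4 transgenic and 3 wildtype animals; wildtype 29 is the mean of 2 arrays. All transgenic points lie below all wildtype points in Asprv1 and Ppl, and the 3 lowest animals in Tgm3 1440150_at are transgenic 11, transgenic 17 and wildtype 26.

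Transglutaminase 1, the membrane-bound cross-linking enzyme, had the largest difference of the 14 probe sets. Probe set 1451416_a_at had intensities of 328, 633, 288 and 246 in transgenic 7, 11, 17 and 84, against 535 and 1028 in wildtype 26 and 28 and 1091 and 1084 on the arrays of wildtype 29. Transgenic 7, 17 and 84 lay below every wildtype array, and transgenic 11 lay just above wildtype 26. The log2 means were 8.54 ± 0.57 in transgenic and 9.76 ± 0.55 in wildtype animals (SD, n = 4 and 3), a difference of -1.22 (95% confidence interval -2.02 to -0.42), or 0.429 times the wildtype level (unadjusted p = 0.00739, limma adjusted p = 0.319). The 2 arrays of wildtype 29 differed by 0.01. The 3 transgenic animals with low Tgm1 were those with the higher Gapdh 3′ to 5′ ratios, and transgenic 11, with a ratio near wildtype, had the highest Tgm1 of the group. With that ratio as a covariate the difference was -0.46, and without transgenic 7 and 84 it was -0.94. Without transgenic 11 it was -1.49 (adjusted p = 0.0611, the lowest of any member under the alternatives tried). The part of this ratio in the Tgm1 result was not tested.

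Transglutaminase 3, the soluble enzyme that also acts in the hair follicle, was read by probe sets that differed from each other. Probe set 1421355_at had intensities of 214, 222, 131 and 268 in transgenic 7, 11, 17 and 84, against 258 and 381 in wildtype 26 and 28 and 633 and 495 on the arrays of wildtype 29. Transgenic 84 lay just above wildtype 26, and the other 3 transgenic animals lay below all wildtype animals. The log2 means of 7.81 ± 0.39 in transgenic and 8.66 ± 0.53 in wildtype animals gave a difference of -0.85 (95% confidence interval -1.53 to -0.16, unadjusted p = 0.0215, limma adjusted p = 0.364). It was -0.58 without wildtype 29 and -1.11 without wildtype 26.

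The other Tgm3 probe set, 1440150_at, had intensities of 1082, 422, 355 and 1167 in transgenic 7, 11, 17 and 84, against 316 and 1216 in wildtype 26 and 28 and 1616 and 1188 on the arrays of wildtype 29. Transgenic 11, transgenic 17 and wildtype 26 were low and the other 4 animals high, a split that crosses the groups. These low animals were also the 3 with the lowest hair shaft keratin means, which were 12.79, 9.89 and 6.89, against 13.75 to 14.27 in the others. All 7 of the 8 listed hair shaft keratins that could be tested had positive differences, with a median of 0.83 and wide spread (lowest adjusted p = 0.759), and the summed intensity of the list ran from 7672 to 117892 in transgenic and from 847 to 144198 in wildtype animals. In the mean of these keratins every transgenic animal lay below wildtype 28 (14.19) and 29 (14.27). The positive sign of that mean therefore rests on wildtype 26 alone. The Tgm3 1440150_at difference of -0.29 (-1.62 to 1.03, limma adjusted p = 0.871) was -0.95 without wildtype 26 and 0.081 without wildtype 29, and it was -0.084, -0.0054 and -0.012 without transgenic 11, transgenic 17 and wildtype 28. With the hair shaft keratin mean as a covariate, an alternative chosen after seeing the data, it was -0.52 and that of 1421355_at was -0.95 (adjusted p = 0.351 and 0.130). The part of hair follicle transcripts in these values was not tested.

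**Figure D3:**
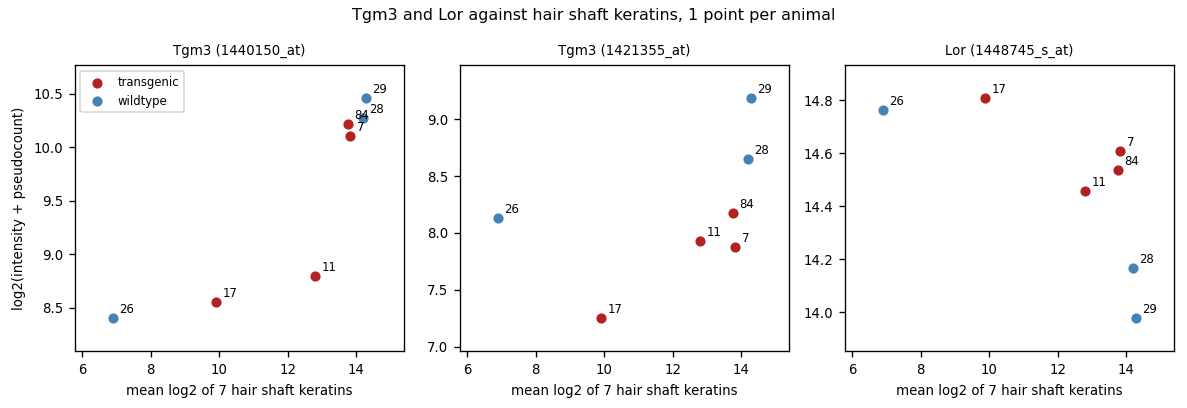
Log2 of signal intensity plus 21.8 for both Tgm3 probe sets and the most abundant Lor probe set against the mean log2 level of 7 hair shaft keratins, 1 point per animal. Tgm3 1440150_at is low in wildtype 26, transgenic 17 and transgenic 11, the animals lowest in hair keratins, and Lor is highest in wildtype 26 and transgenic 17.

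Asprv1, the aspartic protease that cuts profilaggrin in mouse epidermis, was lower in every transgenic animal than in any wildtype animal without passing the adjusted threshold. Its probe set 1452732_at had intensities of 6787, 9160, 11553 and 7105 in transgenic 7, 11, 17 and 84, against 14217 and 14679 in wildtype 26 and 28 and 12279 and 11886 on the arrays of wildtype 29. The nearest animals were transgenic 17 and wildtype 29, and the arrays of wildtype 29 differed by 0.05 on the log2 scale. The means of 13.05 ± 0.35 in transgenic and 13.73 ± 0.15 in wildtype animals (SD, n = 4 and 3) gave a difference of -0.69 (95% confidence interval -1.13 to -0.24), or 0.622 times wildtype (unadjusted p = 0.00674, limma adjusted p = 0.315, the lowest of the 14). Transgenic 7 and 84, with the highest Gapdh ratios, had the lowest Asprv1. The difference was -0.40 without these 2 animals and -0.32 with the ratio as a covariate.

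Within each array, the level of Asprv1 relative to Lor was lower in transgenic skin. This uses the same Asprv1 values again, set against Lor, which lay higher on average in transgenic skin, so it is not a separate result. The log2 level of Asprv1 minus that of the most abundant Lor probe set averaged -1.55 ± 0.30 in transgenic and -0.57 ± 0.35 in wildtype animals, with transgenic values from -1.87 to -1.29 and wildtype values from -0.96 to -0.32. Of 8 members set against Lor in this way, 1 separated the groups downward and 0 upward, where 9.48% of all probe sets tested lay lower relative to Lor with no overlap and 0.463% higher. The count was close to that background.

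Caspase-14, the protease of cornification, was read by 2 probe sets. Probe set 1418748_at had intensities of 614, 1192, 1066 and 1044 in transgenic 7, 11, 17 and 84, against 900.0 and 1853 in wildtype 26 and 28 and 1752 and 1475 on the arrays of wildtype 29. Transgenic 7 alone lay below all wildtype animals, and wildtype 26 lay below the other 3 transgenic animals. The difference was -0.54 (95% confidence interval -1.22 to 0.14, limma adjusted p = 0.508), -0.85 without wildtype 26, -0.33 without transgenic 7 or wildtype 28, -0.30 without transgenic 7 and 84, and -0.13 after adjustment for the Gapdh ratio. Probe set 1443787_x_at, whose suffix marks probes that can also match other sequences, gave 0.30 (-0.35 to 0.94, adjusted p = 0.706), with intensities between 172 and 405. Without wildtype 26 it gave 0.015, without wildtype 28 it gave 0.51, and after adjustment for the Gapdh ratio 0.55. The 2 probe sets shared their order in part, since transgenic 7 and wildtype 26 were the lowest animals in both.

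The plakins of the scaffold both lay lower on average in transgenic skin. Periplakin probe set 1460732_a_at had intensities of 3818, 3181, 3305 and 3003 in transgenic 7, 11, 17 and 84, against 4218 and 4196 in wildtype 26 and 28 and 4975 and 4554 on the arrays of wildtype 29. All 4 transgenic animals lay below all wildtype arrays, and the standard error of the difference, 0.133, was the smallest of the 14 probe sets. The means of 11.70 ± 0.15 in transgenic and 12.11 ± 0.10 in wildtype animals gave a difference of -0.40 (95% confidence interval -0.70 to -0.10), or 0.757 times wildtype (unadjusted p = 0.0147, limma adjusted p = 0.342). This difference varied least with the Gapdh ratio among the 5 with an unadjusted p under 0.05, at -0.45 with the ratio as a covariate and -0.43 without transgenic 7 and 84. Over all alternatives it ran from -0.47 to -0.34.

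Envoplakin, the partner of periplakin, had intensities of 1825, 1446, 914 and 1694 in transgenic 7, 11, 17 and 84 in its probe set 1419133_at, against 1573 and 1905 in wildtype 26 and 28 and 2490 and 2163 on the arrays of wildtype 29. Transgenic 17 was low, and transgenic 7 and 84 lay between wildtype 26 and 28. The difference was -0.42 (95% confidence interval -0.99 to 0.15, limma adjusted p = 0.537), -0.21 without transgenic 17 and -0.28 without wildtype 29. It was -0.72 both after adjustment for the Gapdh ratio and without transgenic 7 and 84. Other plakins, which link filaments to junctions or to each other, were tested in 4 genes. The 3 with the smallest p, Dst, Macf1 and Dsp, gave 0.26, 0.06 and 0.04 (adjusted p = 0.616, 0.891 and 0.926). The signs of these 3 turned after adjustment for the Gapdh ratio, and that of Dsp also after quantile and cyclic loess normalization.

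**Figure D4:**
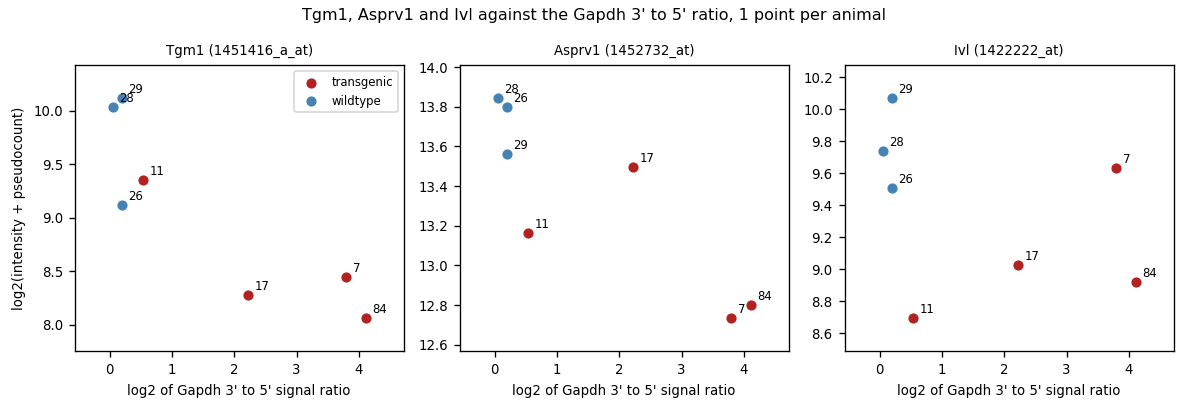
Log2 of signal intensity plus 21.8 for Tgm1, Asprv1 and Ivl 1422222_at against the log2 ratio of 3′ to 5′ Gapdh signal, 1 point per animal. Tgm1 and Asprv1 are lowest in transgenic animals with high ratios, and Ivl is lowest in transgenic 11, whose ratio is near wildtype.

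The difference between the 2 arrays of wildtype 29 gave the technical spread. Over the 14 probe sets it had a median of 0.23 on the log2 scale, from 0.01 in Tgm1 to 0.45 in Flg, against a median of 0.19 over all probe sets tested. The differences between groups in Flg (0.16) and in the more abundant Tgm3 probe set (-0.29) were smaller than this gap in the same probe set, which was 0.45 and 0.44. A gap between 2 single arrays and a difference of group means are unlike measures, so this sets only their sizes side by side.

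The difference between groups was also compared between the sexes, which can show little with 1 wildtype female. The interaction of group and sex was called in 0 of the 14 probe sets by limma, with 0 also at an unadjusted p under 0.05 (lowest adjusted p = 1.0), where 2.86% of all probe sets tested passed the unadjusted level and 0% the adjusted one. In Tgm1 the difference was -1.86 in females and -0.76 in males, an interaction of -1.10 (SE 0.693). In Asprv1 it was -0.80 in females and -0.49 in males. Females were compared with 1 wildtype animal, and both transgenic females had the high Gapdh ratios.

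Other genes of cornification were read from 9 lists, chosen with earlier results of these data known, in which 122 genes outside the members were tested with the most abundant probe set of each. Limma called 0, and at an unadjusted p under 0.05 there were 3 in the higher and 9 in the lower direction (2.46% and 7.38%, against 4.4% and 4.6% of 13559 genes), and their median difference was 0.00. The 12 at an unadjusted p under 0.05 became 39 without wildtype 26 and 8 without wildtype 28. The share of all probe sets at that level is not given for these alternatives, so the counts cannot be set against it. Among other envelope and granular layer proteins, 9 of 22 lay above 0 and 13 below, and an unadjusted p under 0.05 was reached by 1 higher and 3 lower ones. Trex2, a nuclease of differentiating keratinocytes, gave -0.91, Lgals7, a galectin of stratified epithelia, -0.87, and Cdsn, a corneodesmosome protein, -0.83 (adjusted p = 0.301, 0.335 and 0.301), with no overlap between groups in any of the 3. They were named for their small p, and 6.71% of all probe sets tested lay lower with no overlap. After adjustment for the Gapdh ratio Lgals7 was at -0.029, Trex2 at -0.38 and Cdsn at -0.79, and without transgenic 7 and 84 they were at -0.38, -0.58 and -0.68. Suprabasal keratins had a median of 0.12 over 5 genes, with Krt10 at 0.19 (0.051 without wildtype 29, 0.40 without wildtype 26 and 0.010 after adjustment for the Gapdh ratio) and Krt1 at 0.04, and the small proline-rich and late cornified envelope proteins one of 0.02 over 20 genes, with 0 at an unadjusted p under 0.05 in either direction in both lists.

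Regulators of terminal differentiation were balanced, with 13 of 26 above 0 and 13 below. For 3 of those below the unadjusted p was under 0.05, where 4.6% of 13559 genes were lower at that level. Zfp750, a transcription factor that drives terminal differentiation in human keratinocytes, measured 9.93 ± 0.15 in transgenic and 10.59 ± 0.21 in wildtype skin, with no overlap between groups. It was named for its small p, and 6.71% of all probe sets tested lay lower with no overlap. Its difference of -0.66 (95% confidence interval -1.03 to -0.30, limma adjusted p = 0.301) was -0.62 after adjustment for the Gapdh ratio. Prdm1, a transcriptional repressor of the granular layer, and Pou2f3, a POU factor of suprabasal cells, gave -0.51 and -0.57 (adjusted p = 0.393 and 0.417), and -0.85 and -0.29 after the same adjustment. Without wildtype 26 Pou2f3 was at -0.36. Proteins that process filaggrin and the envelope lay above 0 in 6 and below in 10 of 16 genes, with Capn1, a calpain, at -0.94, Furin, a proprotein convertase, at 0.33 and Prss8, a membrane serine protease, at -0.31 (adjusted p = 0.331, 0.409 and 0.443). Adjusted for the Gapdh ratio these were -0.26, 0.36 and -0.33. Lipid envelope enzymes had a median of -0.06 over 14 genes, with Smpd1, an acid sphingomyelinase, at -0.81, Dgat2, an acyltransferase of triglyceride synthesis, at 0.67 and Pnpla1, which makes acylceramides, at -0.36 (adjusted p = 0.338, 0.360 and 0.554). Smpd1 was lowest in transgenic 7 and 84, which had the highest Gapdh ratios, and was at -0.067 after adjustment for the ratio and -0.39 without these animals. Adjustment put Dgat2 at 0.95 and Pnpla1 at -0.22, and leaving out 1 animal moved Pnpla1 between -0.56 and -0.24.

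The proteases and inhibitors that act on transglutaminases did not pass either. Ctsl, which encodes the protease inhibited by hurpin, gave -0.05 (95% confidence interval -0.42 to 0.32), and Cst6, a cystatin that inhibits cathepsin L in human epidermis, also gave -0.05 (-0.35 to 0.25). Ctsd measured 12.39 ± 0.45 in transgenic and 13.05 ± 0.05 in wildtype skin, a difference of -0.66 (-1.17 to -0.14, limma adjusted p = 0.353) with no overlap between groups. Of all probe sets tested, 6.71% lay lower with no overlap. The difference of Ctsd was 0.0059 after adjustment for the Gapdh ratio and -0.28 without transgenic 7 and 84, and its levels in transgenic 7, 11, 17 and 84 were 12.01, 12.88, 12.67 and 12.00, lowest in the animals with the highest ratios. Of the other transglutaminases 3 of 5 lay above 0, with Tgm2, the tissue transglutaminase, at 0.36, F13a1, the coagulation factor XIII subunit found in dermal cells, at 0.30 and Tgm4 at 0.21 (adjusted p = 0.468, 0.672 and 0.826). Tgm2 was at 0.12 after adjustment for the Gapdh ratio, and F13a1 was between 0.086 and 0.64 with 1 animal left out.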

How the data were processed

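Total RNA of belly skin was labelled with a one-cycle protocol, per the labels. The authors used MAS5 to compute the deposited linear signal intensity, per the submitters' processing notes (version not given in the sources used here). On each of the 8 arrays the mean, trimmed by 2% at either end, was 500.003. The number of arrays limits the precision. Of 45101 probe sets 64 were array controls and were left out of tests. Gene symbols came from the platform annotation, with 34945 probe sets carrying 1 symbol, 932 several and 9160 none.

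A pseudocount of 21.8 (20th percentile of the table) was added before taking log2, with no further normalization, and the arrays of wildtype 29 were averaged. A filter removed probe sets whose mean log2 was under 6.45, the 40th percentile, and kept 27022. The group comparison used limma 3.58.1 (R 4.3.3) (moderated by a trended prior, tests 2-sided) and Benjamini-Hochberg adjustment over all of them and a threshold of 0.05. The pipeline was tested on simulated data. Alternatives covered normalization, pseudocount, filter, variance model, sex, the Gapdh ratio or hair keratins as covariates, the arrays of wildtype 29, 1 probe set per gene and animals left out. The members and lists were chosen with earlier results of these data known. Named genes were all members, Ctsl, Ctsd, Cst6, Krt1 and Krt10, and the 3 genes with the smallest p in each list (for lists of cell markers only the leading ones are printed), with the most abundant probe set standing for a gene. To complete the lists, Lce3c, Lce1c and Lce1h (differences -1.46, 0.36 and 0.67), Krt80 and Krt2 (-0.29 and 0.90), and Ctsc and Stfa3 (-0.26 and 0.77) are given here. Krt2 had low intensities of 46.5, 50.5 and 53 in transgenic 7, 11 and 84, and of 35.6, 45 and 39.0 in wildtype 26, 28 and 29. Transgenic 17 alone stood apart at 446.7, and the Krt2 difference rests on that animal. Summaries used Python 3.11.15, numpy 2.4.6, pandas 2.3.3 and matplotlib 3.10.9.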

Additional observations from a re-analysis of the deposited data

How the results depend on the processing

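No member probe set passed an adjusted p under 0.05 in limma under any of the 22 alternatives, in which 2 to 8 of them had an unadjusted p under 0.05 against 5 as reported. The 8 came without wildtype 26 and with the hair keratin covariate, which was chosen after seeing the data, and the 2 came without wildtype 29 and with the Gapdh covariate. Shares of all probe sets at that level are not given for the alternatives. The median difference of the members ran from -0.54 to -0.26 with an animal left out. The sign turned in 2 of 14 probe sets, for Lor 1420184_at with the Gapdh covariate (-0.29) and for Tgm3 1440150_at without wildtype 29 (-0.948 to 0.081 with an animal left out). Among listed genes 1 was called with the hair keratin covariate (Cnfn, difference -0.87, adjusted p = 0.0399, with -0.67 and 0.579 as reported; it was chosen after its values were seen), and 0 under the others. With the Gapdh covariate signs turned for Ctsd (0.0059), Dst (-0.084), Macf1 (-0.17) and Dsp (-0.21). Signs also turned for Dsp after quantile (-0.012) and cyclic loess normalization (-0.12) and without transgenic 7 and 84 (-0.10), as for Macf1 (-0.029). Krt1 gave -0.053 after cyclic loess and -0.00495 with the first array of wildtype 29, and Tgm4 -0.054 with the second. With an animal left out, Krt1 ran from -0.52 to 0.59, Tgm4 from -0.0284 to 0.49, Cst6 from -0.12 to 0.0233, Ctsl from -0.17 to 0.0395 and Dsp from -0.0318 to 0.10. The causes were not tested. No paired analysis was possible because the groups share no animal numbers.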

Other observations

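Marker lists of other cells in whole skin also gave 0 calls in limma. As background, 4.4% of 13559 genes, each by its most abundant probe set, reached an unadjusted p under 0.05 upward. Another 4.6% of these genes reached it downward. The signs counted here stand beside 49.8% of all probe sets tested with a difference below 0. Of the adipocyte markers 3 of 3 tested lay higher in transgenic skin at an unadjusted p under 0.05, with Lep, the hormone leptin, at 2.52, Adipoq, the hormone adiponectin, at 0.49 and Fabp4, a fatty acid carrier, at 0.38 on the log2 scale (adjusted p = 0.217, 0.353 and 0.342). Melanocyte markers lay below 0 in 5 of 5, with Mlana at -0.87, Tyr at -0.85 and Pmel at -1.03 (adjusted p = 0.386, 0.694 and 0.704). Their mean log2 level was lowest in transgenic 17 (7.85) and wildtype 26 (8.31), against 9.09 to 11.2 in the other animals. That split crosses the groups, and the same animals were lowest in hair shaft keratins. Mast cell markers lay above 0 in 4 of 5, led by Cpa3, a carboxypeptidase of mast cell granules, at 0.73 (adjusted p = 0.353). Skeletal muscle markers lay above 0 in 5 of 5, led by Ryr1, the calcium channel of muscle, at 0.64 (adjusted p = 0.340). Of the macrophage markers 3 of 4 lay above 0, while C1qa, a complement subunit, lay at -2.07 (unadjusted p = 0.0195, adjusted p = 0.357). C1qa was at 7.93, 10.93, 9.73 and 7.80 in transgenic 7, 11, 17 and 84, against 11.90, 11.00 and 10.60 in wildtype 26, 28 and 29, lowest in the animals with the highest Gapdh ratios. The 3 sebocyte markers tested were split. Scd1, a fatty acid desaturase, lay at 0.31 and Mgst1 at 0.11, while Elovl3 lay at -0.77 (adjusted p = 0.408, 0.763 and 0.568). Markers of basal and suprabasal keratinocytes, inner root sheath, fibroblasts, endothelium and T cells gave 0 at an unadjusted p under 0.05 in either direction. The part of these in the values of the envelope genes was not tested.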
